A study of Homo sapiens with 21 samples.

Results

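The short arm of human chromosome 3 (3p) is one of the chromosome arms most often lost in lung cancer, and here its loss was compared with an unaltered chromosome 3 in the polyadenylated RNA of lung epithelial cells. The members are all protein-coding genes of the deposited chromosome 3 mRNA table whose mean over the 3 libraries of 3p loss and the 3 of wild type (WT) was at least 1. That left 11222 of 17756 genes, of which 10896 lie off 3p, 319 lie on 3p and 7 had no position in the annotation used. Genes off 3p are the subject of what follows.

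The series holds 21 libraries of an isogenic cell system, meaning cells that share one origin and differ by a chromosome arm. All groups used here are labelled as the same lung epithelial cell line, with 3p loss, Chr3 WT or 3q gain as the only stated genotype, and no drug treatment is given for the mRNA libraries. Each genotype has 3 biological replicates, and how the arm was removed, how many clones stand behind each genotype and whether the replicates were separate cultures are not given in the sources used here, so p-values measure the spread between these libraries and a difference between genotypes cannot be told apart from a difference between clones. Fragments of mRNA that ribosomes shield from nuclease (ribosome-protected fragments, RPF) were sequenced in other libraries of 3p loss and 3p WT cells, 3 of each, after 5 min of cycloheximide, which stalls elongating ribosomes.

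A lost arm lowers the transcripts encoded on it, and cells can then differ elsewhere in the genome through transcription factors, signalling and stress pathways. Whether the differences given below arose in that way was not tested. In stratified airway and skin epithelium, basal cells carry KRT5, KRT14 and TP63, and cells that leave the basal layer turn on suprabasal keratins. Bone morphogenetic protein (BMP) signals induce the ID genes, inhibitors of basic helix-loop-helix factors. Growth factor signals through the MAP kinase ERK induce ETV factors and their own inhibitors of the DUSP, SPRY and SPRED families, and activins and TGF-β signal through a separate set of SMAD proteins.

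The genotypes differed at genes of many pathways off 3p. Values are deposited on the TPM scale, in which a gene's reads are divided by its length and by the library's total, and differences were tested as log2(TPM + 1) with limma at a Benjamini-Hochberg adjusted p under 0.05, a scale that understates the change of low genes. Over all 11222 genes limma called 1702 (15.2%), and 1470 of these lay off 3p (13.5% of the genes there). Off 3p, 699 genes were higher (6.42% of those tested) and 771 were lower (7.08%) in 3p loss, and 669 of these calls were at least 2-fold. The 3 libraries of one genotype all lay above or below those of the other at 3520 genes off 3p (32.3%). They did so at 1466 of the 1470 genes called there, so a lack of overlap adds little to a call. The median difference off 3p was 0.02, with quartiles of -0.27 and 0.28. On 3p, 228 genes were lower (71.5%) and 1 was higher (0.313%), with a median of -0.89, which checks the labels. With each library centred on its own median, 1129 genes off 3p were higher and 635 lower, so that the share of calls that were higher went from 47.6% to 64.0%.

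**Figure D1:**
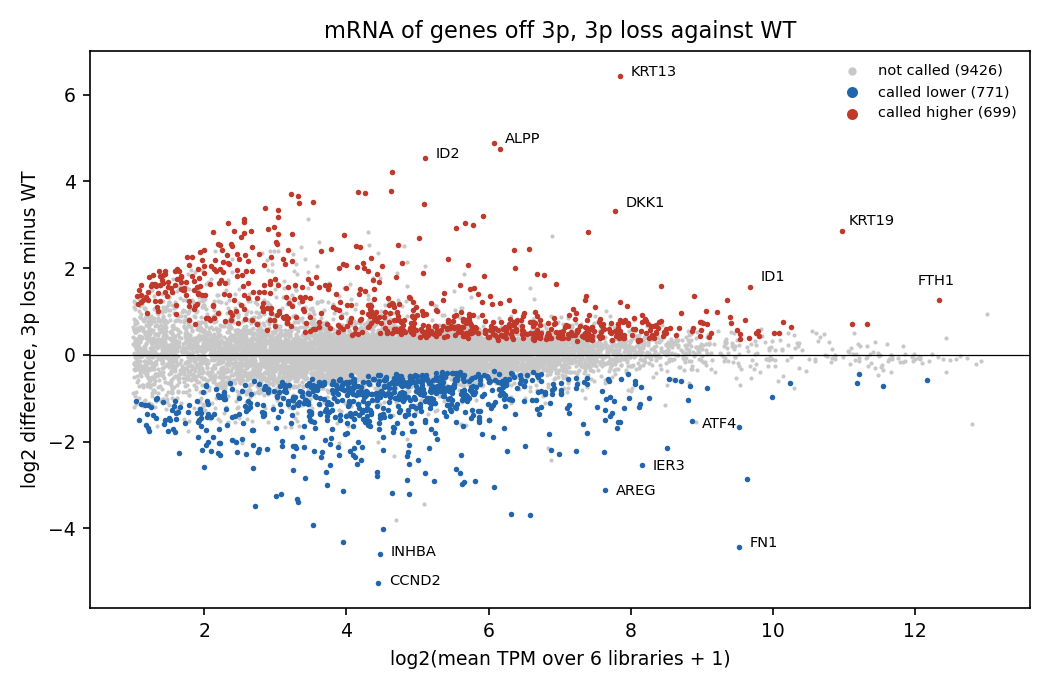
Log2 difference between 3p loss and WT (vertical axis) against log2 of the mean TPM of the 6 libraries plus 1 (horizontal axis) for each tested gene off 3p. The 699 genes called higher and the 771 called lower by limma are spread over the whole range of expression, around 9426 genes that were not called.

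Single libraries stood apart over whole chromosome arms, in both genotypes, and these are given before the genes. The measure is the median, over an arm's genes with a mean of at least 5, of the log2 deviation from each gene's median over 9 libraries. On 10p it was -0.93 and -0.85 in 3p loss replicates 1 and 3 and -0.82 in WT replicate 2. WT replicate 2 was also low on 10q (-0.94) and 13q (-0.79), 3p loss replicate 2 on 16p (-0.61), and WT replicate 1 was high on 18p (1.24). Smaller deviations of at least 0.25 stood on 7p, 7q, 8q and 9q. On the 3p arm itself the 3 libraries of 3p loss gave -0.88, -0.73 and -0.71. Leaving out those 9 arms, 8905 genes off 3p remained, of which 610 were higher (6.85%) and 648 were lower (7.28%).

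**Figure D2:**
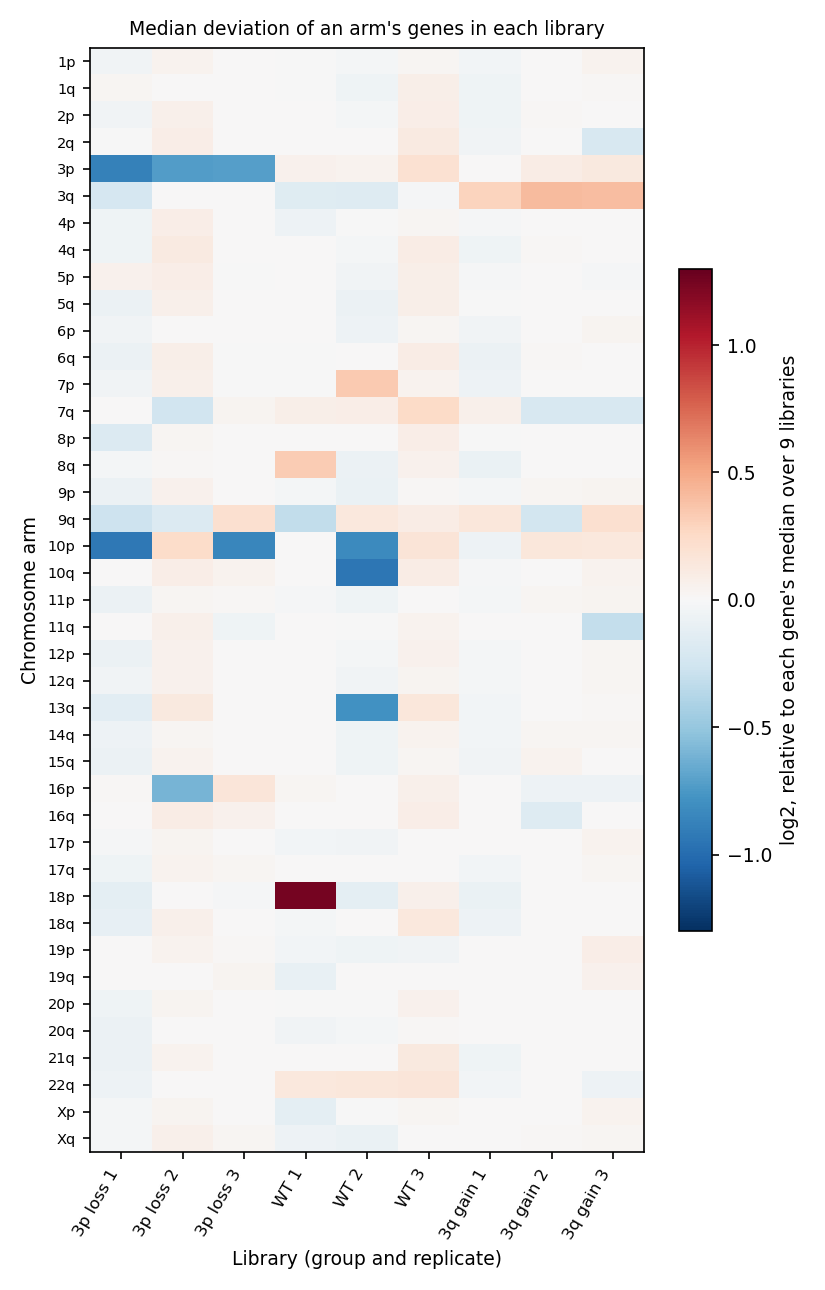
Median log2 deviation of each chromosome arm (rows) in each of the 9 mRNA libraries (columns), with colour from low to high. The 3p row is low in the 3 libraries of 3p loss, and 10p, 10q, 13q, 16p and 18p each stand apart in 1 to 3 single libraries.

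Blocks of neighbouring genes outside chromosome 3 were lower together in every library of 3p loss. Windows of 10 Mb with at least 10 tested genes, a median difference of -0.5 or lower and over 25% of genes called lower were picked on these values, so their differences are a description with no test. They joined into 3 segments with 161 genes, of which 100 were called lower and 2 higher. On chromosome 22 between 40 and 60 Mb, 60 of 85 genes were lower with a median of -0.85, and the library medians against the WT mean were -0.87, -0.82 and -0.80 in 3p loss. On chromosome 7 between 140 and 160 Mb, 31 of 65 were lower with a median of -0.80, and library medians were -0.94, -0.71 and -0.80. On chromosome 21 between 20 and 30 Mb, 9 of 11 were lower with a median of -0.91. Each was close in size to the median of 3p.

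These 3 segments were low in 3q gain as well, where the same WT libraries serve as the reference. The 3q gain libraries gave -0.92, -0.86 and -0.86 on the chromosome 22 segment and -0.88, -0.90 and -0.85 on that of chromosome 21. On the chromosome 7 segment, 3q gain replicate 1 stood at -0.03 and the other two at -0.83 and -0.79. Compared directly with 3q gain, limma called 1 of the 161 genes. In the RPF libraries, whose WT samples are others, 64 of 80 tested genes of the chromosome 22 segment, 37 of 52 of the chromosome 7 segment and 3 of 5 of that of chromosome 21 were lower, at a background of 32.9% of genes off 3p. Outside the segments, 697 genes off 3p were higher (6.49%) and 671 were lower (6.25%). The segments hold SREBF2, the transcription factor of sterol synthesis, which stood at 57.9, 66.2 and 65.3 TPM in 3p loss, 129, 121 and 140 in WT and 64.2, 74.0 and 72.4 in 3q gain. Its difference was -1.03 ± 0.11 (SE, limma adjusted p = 0.000813). They also hold EP300, a histone acetyltransferase, and, on chromosome 21, BACH1, a repressor of HMOX1, which stood at 9.87, 11.0 and 9.34 TPM in 3p loss against 17.3, 28.5 and 25.7 in WT. BACH1 is named after its values were seen.

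Promoter sequence is shown first for 3 groups of genes described below, since each group has a known response element. The sequences are RefSeq promoters on GRCh38.p14, of which 9282 matched a tested gene by symbol, running from 250 bases before to 50 bases after the gene's start and searched on both strands. TGATGNAA, the amino acid response element bound by ATF4, was found in 1.62% of those promoters and in 4 of 26 of the ATF4 list. Capitals mark the match, 68, 209 and 129 bases before the start of ASNS (asparagine synthetase, chr7:97872447-97872498, minus strand), CHAC1 (a glutathione-degrading enzyme, chr15:40953240-40953291, plus strand) and MTHFD1L (a mitochondrial folate enzyme, chr6:150866335-150866386, plus strand). In CHAC1 the match is on the other strand.
ASNS: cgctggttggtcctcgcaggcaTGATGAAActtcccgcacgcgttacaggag
CHAC1: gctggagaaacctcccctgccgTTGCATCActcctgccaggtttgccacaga
MTHFD1L: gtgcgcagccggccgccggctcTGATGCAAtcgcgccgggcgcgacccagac

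TGACNNNGC, the core of the antioxidant response element bound by NRF2, was found in 15.2% of promoters and in 7 of 25 of the NRF2 list. It is shown for GPX2 (a glutathione peroxidase, chr14:64942837-64942889, minus strand), CBR1 (carbonyl reductase, chr21:36069843-36069895, plus strand) and ME1 (malic enzyme, chr6:83431158-83431210, minus strand), 122, 159 and 137 bases before the start. In GPX2 and CBR1 the match is on the other strand.
GPX2: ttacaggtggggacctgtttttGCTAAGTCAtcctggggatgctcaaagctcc
CBR1: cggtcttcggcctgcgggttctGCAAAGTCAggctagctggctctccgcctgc
ME1: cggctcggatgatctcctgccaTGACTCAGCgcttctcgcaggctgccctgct

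The interferon-stimulated response element, searched as a pair of GAAA runs with 2 bases of any kind between them, was found in 2.75% of promoters and in 25 of 40 of the interferon list. It is shown for IFI6 (chr1:27672254-27672370, minus strand) with 3 matches, IFI27 (chr14:94110606-94110672, plus strand) with 2 matches on opposite strands, and BST2 (a membrane protein that tethers virus particles, chr19:17405723-17405782, minus strand) with 2 matches that overlap.
IFI6: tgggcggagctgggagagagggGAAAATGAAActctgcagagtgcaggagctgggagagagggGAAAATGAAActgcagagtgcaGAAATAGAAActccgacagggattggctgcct
IFI27: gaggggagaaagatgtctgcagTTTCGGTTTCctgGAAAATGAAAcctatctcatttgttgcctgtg
BST2: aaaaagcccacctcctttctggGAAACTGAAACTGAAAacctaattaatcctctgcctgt

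The ID genes and BMP pathway genes were higher in 3p loss. Of 20 tested members of the list, 10 rose and none fell, with a median difference of 0.87 against 0.02 over all genes off 3p. ID2 (RefSeq on GRCh38, chromosome 2, 8682056 to 8684461) stood at 40.3, 78.8 and 75.8 TPM in 3p loss and at 1.46, 2.44 and 1.36 in WT. Every 3p loss library was above every WT library, and the difference was 4.54 ± 0.38 (limma adjusted p = 0.000392). ID1 stood at 901, 1426 and 1315 TPM against 600, 334 and 328 (1.56 ± 0.31, limma adjusted p = 0.00978). ID3 stood at 461, 482 and 592 against 173, 134 and 206 (1.59 ± 0.22, limma adjusted p = 0.0019), and ID4 at 5.66, 13.6 and 4.89 against 0, 0 and 0.0484. None of the 4 ID genes overlapped between genotypes.

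Among the ligands of the pathway, BMP2 stood at 13.4, 14.9 and 16.6 TPM in 3p loss and 5.24, 4.47 and 6.81 in WT (1.31 ± 0.22, limma adjusted p = 0.00461), and BMP7 at 5.25, 11.8 and 11.0 against 0.346, 0.355 and 0.511. SMAD6, an inhibitory SMAD induced by BMP signals, stood at 3.38, 9.18 and 12.9 TPM against 0.444, 0.152 and 0, and ATOH8, a helix-loop-helix factor, at 4.77, 5.75 and 18.9 against 0.141, 0 and 0. SMAD9, a signal transducer, stood at 1.02, 4.10 and 3.32 TPM against 0.251, 0.181 and 0.135 (1.58, limma adjusted p = 0.0188), a call lost when 3p loss replicate 2 (0.055), 3p loss replicate 3 (0.0576) or WT replicate 3 (0.0579) was left out. The receptor gene BMPR1A and the transducer gene SMAD1 were not called, with differences of 0.42 (limma adjusted p = 0.393) and 0.07 (limma adjusted p = 0.85). Compared directly with 3q gain, 8 of the 20 were higher in 3p loss, at a background of 0.955% of genes off chromosome 3, and the differences were 4.13 for ID2 (limma adjusted p = 0.000981) and 1.80 for BMP2 (limma adjusted p = 0.00347). Leaving out 1 library gave 8 to 10 calls, and a mean of at least 10 TPM as the minimum left 4.

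In the RPF libraries, edgeR called 7913 of 11425 genes (69.3%). There, where 36.0% of genes off 3p were higher and 32.9% lower, 6 of 16 tested members of the BMP list were higher and 3 lower. In RPF counts scaled to the library total (CPM), ID1 stood at 145, 148 and 125 in 3p loss and 36.3, 29.1 and 45.2 in WT, and ID2 at 6.64, 6.48 and 6.01 against 0.80, 1.12 and 0. ID3 is listed at 0 in all 6 RPF libraries. Over the 16 members tested in both assays the median mRNA difference was 0.12, against 0.87 over all 20, and the members not tested in RPF include ID3, SMAD6 and ATOH8.

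Keratins of suprabasal cells rose, while the list of basal keratins and basal cell genes was mixed. Of 5 tested suprabasal keratins, 4 were higher in 3p loss than in WT, and the same number than in 3q gain. KRT10, a keratin of the first suprabasal layers, stood at 164, 96.2 and 132 TPM in 3p loss, 23.1, 33.9 and 39.1 in WT and 21.6, 34.0 and 37.2 in 3q gain (1.99 ± 0.27 against WT, limma adjusted p = 0.00186). KRT1, its partner, stood at 25.6, 16.7 and 10.2 TPM, against 0, 0 and 1.58 in WT and 0, 0.265 and 0 in 3q gain. Both were above every WT and every 3q gain library. KRT4, of mucosal epithelium, stood at 72.2, 21.4 and 9.19 TPM against 0.0676, 0 and 5.82 in WT (3.72), and its call was lost when 3p loss replicate 1 (limma adjusted p = 0.0622), WT replicate 1 (0.053) or WT replicate 2 (0.054) was left out.

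KRT13, a keratin of mucosal epithelium, had the largest difference of the list and also the widest spread. It stood at 991, 136 and 230 TPM in 3p loss and 1.47, 0.182 and 16.0 in WT (6.43 ± 1.08, 95% confidence interval 4.00 to 8.85, limma adjusted p = 0.00461). Leaving out one library moved the difference to 5.60 (3p loss replicate 1), 7.03 (3p loss replicate 2), 5.61 (WT replicate 2) or 7.53 (WT replicate 3). Its RPF CPM were 91.1, 95.9 and 98.2 against 0.40, 0.56 and 0.499. KRT19, a keratin of simple epithelium, stood at 4757, 3867 and 1920 TPM against 579, 251 and 638 (2.86 ± 0.45, limma adjusted p = 0.00356). Against 3q gain its difference was 0.96 and not called. Of 15 genes on the basal list, KRT16, KRT6C and KRT6A rose and 4 fell. The number that fell was 2 when 3p loss replicate 1 or 3 or WT replicate 2 or 3 was left out. KRT5, KRT14 and TP63, the markers of basal cells given above, were not among those that rose. KRT16, a keratin of activated epithelium, stood at 163, 60.9 and 188 TPM, against 13.2, 24.6 and 33.8 in WT. The genes that fell were KRT14 (-2.87, limma adjusted p = 0.0474), KRT6B (-2.33), NGFR, a nerve growth factor receptor of basal cells (-2.12), and PDPN (-1.05). The call of KRT14 was lost in 12 of 17 alternatives, among them the fits without any single 3p loss library (adjusted p = 0.0605, 0.128 and 0.0777), WT replicate 2 (0.117) or 3 (0.131), or 3q gain replicate 2 (0.0587) or 3 (0.0527). That of KRT6A (0.70) was lost in 13, among them the fits without any single library other than WT replicate 2. KRT5 differed by 0.94 (limma adjusted p = 0.0699) and TP63 by -0.33 (limma adjusted p = 0.307), neither of them called. KRT15, another keratin of basal cells, differed by 2.03 to 3.60 over all fits and was not called in 13 of 17 alternatives. The 14 tested genes of the cornified envelope, the end stage of keratinocytes, gave no limma call in either direction, with 6 at an unadjusted p under 0.05. Paralogous keratins can share reads, and how such reads were counted is not given in the sources used here.

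Markers of other cells were few. Of 9 airway markers in the table none reached the minimum level, and neither of the 2 leukocyte markers tested was called. Of 7 tested mucins and airway secretory genes AGR2 rose (2.32, limma adjusted p = 0.0381) and LCN2 fell (-1.63, limma adjusted p = 0.0423), calls lost in 10 and 12 of 16 alternatives. Both were lost without 3p loss replicate 1 or 2, WT replicate 1 or 2 or 3q gain replicate 3, that of AGR2 also without WT replicate 3 or 3q gain replicate 1 and that of LCN2 also without 3p loss replicate 3 or 3q gain replicate 2. Of 10 endothelial markers only KDR was tested, and it rose. Of 10 fibroblast markers 4 were tested, and their sum was 90.1, 8.06 and 123.5 TPM in 3p loss against 14.0, 10.3 and 10.3 in WT. Most of that sum was DCN, a matrix proteoglycan, at 75.8, 2.96 and 114 TPM in 3p loss, so replicate 2 was near WT. Its call (limma adjusted p = 0.0459) was lost in 12 of 17 alternatives, among them the fits without any single library other than 3p loss replicate 2. FAP, a surface protease of activated fibroblasts, fell (-2.58, limma adjusted p = 0.000813). The part of other cell types in any result was not tested, and in bulk RNA fewer cells of a type and less RNA per cell cannot be told apart.

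Targets of ERK signalling fell. Of 33 tested feedback and immediate early genes, 14 were lower and none higher (median -0.58), and 11 to 13 were lower with 1 library left out. DUSP6, a phosphatase specific for ERK, stood at 4.47, 8.10 and 10.3 TPM in 3p loss and 45.1, 102 and 49.7 in WT (-2.92 ± 0.35, limma adjusted p = 0.00119). The ETS factors ETV4 and ETV5 stood at 1.63, 3.78 and 2.06 against 15.8, 17.8 and 31.8 (-2.69 ± 0.40, limma adjusted p = 0.00268) and at 1.23, 2.57 and 2.55 against 9.94, 13.5 and 21.4 (-2.32 ± 0.34, limma adjusted p = 0.00268). In all 3 genes the libraries of 3p loss were below every WT library.

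The receptor tyrosine kinase inhibitors SPRY4 and SPRED1 fell (-2.10 and -1.64), as did DUSP4 (-1.42), the AP-1 subunit FOSL1 (-1.83) and PHLDA1, an early response gene (-2.52). IER3, an early gene of survival signalling, stood at 82.0, 122 and 54.2 TPM against 492, 523 and 431 (-2.54 ± 0.30, limma adjusted p = 0.000996). FOS, EGR1 and MYC were not called (-0.39, -0.52 and -0.23), while JUN, an AP-1 subunit, fell (-0.83, limma adjusted p = 0.0377). The call of JUN was lost in 11 of 17 alternatives, among them the fits without 3p loss replicate 1 or 3, any single WT library, or 3q gain replicate 1 or 3 (adjusted p = 0.0508 to 0.0874). Against 3q gain, 3 of the 33 were lower in 3p loss, at a background of 0.785%, namely ETV4 (-1.75, limma adjusted p = 0.0421), ETV5 (-1.48, limma adjusted p = 0.045) and IER3 (-1.35, limma adjusted p = 0.0357). The 3q gain libraries of DUSP6 stood between the other genotypes, at 23.7, 19.2 and 14.7 TPM. In RPF, 18 of 30 tested members were lower and 9 higher, at a background of 32.9% lower and 36.0% higher. DUSP6 stood there at 8.72, 12.4 and 13.2 CPM in 3p loss against 74.2, 69.1 and 73.5 in WT.

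Ligands of the epidermal growth factor receptor fell with them. Of 11 tested genes of that family, 4 were lower and none higher, a count that was 3 to 4 with 1 library left out. AREG stood at 46.7, 37.8 and 34.5 TPM in 3p loss and 269, 373 and 430 in WT (-3.12 ± 0.27, limma adjusted p = 0.00044). HBEGF stood at 7.30, 8.58 and 6.77 against 30.9, 78.9 and 67.6, and EREG at 3.50, 4.78 and 3.67 against 18.4, 29.0 and 23.7. All 3 ligands were low in 3q gain too, where AREG stood at 83.2, 59.4 and 38.5 TPM, and the direct difference of 3p loss from 3q gain was -0.54 for AREG (limma adjusted p = 0.399). HBEGF did not differ in RPF by the edgeR test (0.20, edgeR adjusted p = 0.54), while AREG was lower there (-1.86).

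The lowest single gene relative to WT was CCND2, which encodes cyclin D2, a driver of entry into the cell cycle. It stood at 0.113, 0.0745 and 0 TPM in 3p loss, 45.2, 24.0 and 55.4 in WT and 14.1, 12.8 and 1.25 in 3q gain (-5.24 ± 0.64 against WT, limma adjusted p = 0.00123). The 3 groups did not overlap. Against 3q gain its difference was -2.87 (limma adjusted p = 0.0379), and its RPF CPM were 8.72, 11.4 and 10.1 in 3p loss and 130, 115 and 133 in WT. CDKN2C, an inhibitor of the kinases that cyclin D activates, rose by 2.07. G1 cyclins and CDK inhibitors were mixed, with 2 of 24 higher and 3 lower. Of 40 mitotic genes 6 were higher and none lower (1 to 9 higher with 1 library left out). Of 46 replication genes 7 were higher and none lower (3 to 8). Over all genes off 3p, 6.42% were higher and 7.08% lower. In RPF, 7 of 40 mitotic genes were higher and 19 lower, and 25 of 44 replication genes were higher and 10 lower. There the background was 36.0% higher and 32.9% lower. FLI1, an ETS factor, had the same order as CCND2, at 0.0551, 0.207 and 0 TPM in 3p loss, 10.2, 10.7 and 12.3 in WT and 6.38, 4.34 and 1.07 in 3q gain.

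INHBA, the gene of the activin A subunit, was low in 3p loss and in 3q gain alike. It stood at 0.269, 0.945 and 1.14 TPM in 3p loss, 29.6, 52.0 and 43.5 in WT and 1.83, 1.39 and 0.723 in 3q gain (-4.58 ± 0.30 against WT, limma adjusted p = 0.000245). The direct difference from 3q gain was -0.38 (limma adjusted p = 0.641). Of 24 genes of the activin and TGF-β pathway, 5 fell and 1 rose, with 4 to 6 lower when 1 library was left out. TGFB1 stood at 14.5, 7.78 and 26.2 TPM against 48.6, 75.8 and 53.3 (-1.93 ± 0.40, limma adjusted p = 0.0125). Its target PMEPA1, a feedback inhibitor of SMAD signals, fell, with a difference of -3.19. TGFBR3, the co-receptor, rose by 1.57, from 4.27, 4.70 and 3.44 TPM in WT to 14.8, 10.5 and 18.2. PMEPA1 was also lower than in 3q gain (-1.97, limma adjusted p = 0.00876), at 3.13, 5.19 and 5.74 TPM against 28.1, 21.4 and 14.9.

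Several genes of the contractile cytoskeleton fell. Of 25 tested contractile genes, 11 were lower and 1 higher (median -0.58), and 8 to 11 were lower with 1 library left out. In RPF, 8 of 23 were higher and 10 lower (median 0.08), at a background of 36.0% higher and 32.9% lower. ACTN1, an actin crosslinker of stress fibres, stood at 132, 154 and 138 TPM in 3p loss and 372, 298 and 330 in WT (-1.23 ± 0.14, limma adjusted p = 0.000995), and FLNA, a filamin, at 289, 308 and 295 against 407, 478 and 439. The nonmuscle myosin heavy chains moved apart. MYH9 stood at 350, 351 and 328 TPM against 509, 660 and 539 (-0.72 ± 0.13), while MYH14 stood at 53.1, 49.2 and 34.0 against 0.181, 0.70 and 6.47 (4.21 ± 0.56, and 5.01 without WT replicate 3). MYH9 lies on 22q in the window of 30 to 40 Mb, next to the low segment, where 26 of 91 genes were lower and 10 higher. MYH14 was high in 3q gain also, at 29.9, 32.1 and 43.4 TPM. Of 13 integrins 5 fell, but the count was 2 when 3p loss replicate 1 was left out and 3 when WT replicate 3 was, and in RPF 9 of the 13 were lower.

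Several genes of the NF-κB and interleukin 1 lists fell. Of 24 NF-κB factors and feedback genes, 7 were lower and none higher (median -0.58), and 6 to 9 were lower with 1 library left out. IL1A and IL1B, the interleukin 1 genes, stood at 18.5, 4.98 and 9.14 TPM in 3p loss against 68.9, 158 and 213 in WT (-3.66 ± 0.56, limma adjusted p = 0.0031) and at 16.9, 7.53 and 17.8 against 88.1, 129 and 140 (-3.05 ± 0.36, limma adjusted p = 0.000995). The gene CSF3, a colony-stimulating factor of granulocytes, stood at 0.276, 0.533 and 0.271 TPM against 33.3, 39.7 and 12.8. The libraries did not overlap at any of these 3 genes. Of 11 tested genes of the interleukin 1 family and its receptors, 3 were lower and 1 higher, the latter not called without 3p loss replicate 1 or 2 or WT replicate 2. Of 16 cytokines and chemokines, 5 were lower and none higher, and 3 were lower when 3p loss replicate 1 or 2 or WT replicate 1 or 3 was left out.

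The deubiquitinase TNFAIP3, which ends NF-κB signals, stood at 10.7, 8.82 and 13.7 TPM against 97.2, 111 and 42.3, and the NF-κB subunit RELB at 5.45, 7.25 and 6.04 against 25.2, 21.4 and 25.6 (-1.79 ± 0.16, limma adjusted p = 0.000488). RELB was the member of the list also lower than in 3q gain (-0.84, limma adjusted p = 0.0215). VEGFA, the endothelial growth factor, fell (-2.63), as did PDK1, a hypoxia-induced kinase (-1.29). Of 24 genes of the hypoxia list 9 fell, but 4 without 3p loss replicate 1. In RPF 11 of 21 were higher and 6 lower, at a background of 36.0% higher and 32.9% lower.

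**Figure D3:**
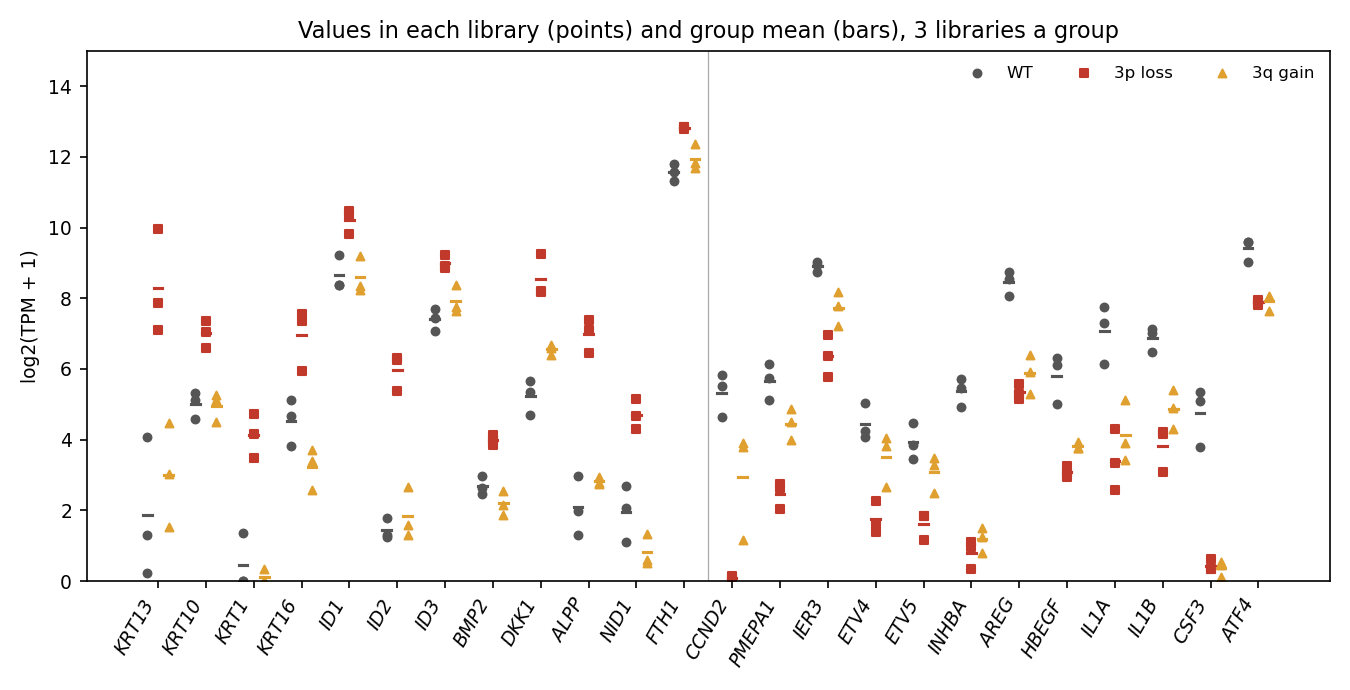
Log2(TPM + 1) of 24 genes in each library of WT, 3p loss and 3q gain, with the mean of each group. ID2, KRT10 and ALPP stand apart in 3p loss from both other groups, while INHBA, AREG and ATF4 are low in 3p loss and 3q gain alike.

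Large differences also stood at single genes of other lists. ALPP, the placental alkaline phosphatase, whose close paralogs can share reads, stood at 136, 167 and 86.5 TPM in 3p loss, 6.78, 1.48 and 2.98 in WT and 5.79, 6.77 and 5.76 in 3q gain (4.89 ± 0.38, limma adjusted p = 0.000351). DKK1, a secreted inhibitor of Wnt signals, stood at 289, 293 and 610 TPM against 49.1, 24.8 and 40.0 in WT and 101, 82.7 and 95.9 in 3q gain (3.31 ± 0.31, limma adjusted p = 0.000508). DKK1 lies on 10q, where WT replicate 2 was low over the whole arm. APCDD1, another inhibitor of Wnt signals on 18p, where WT replicate 1 was high over the arm, rose by 3.39 and the ligand gene WNT6 by 1.68. NID1, a basement membrane linker, stood at 24.7, 18.7 and 34.5 TPM against 1.14, 5.49 and 3.23 in WT, and its RPF CPM did not differ by the edgeR test, at 27.2, 30.5 and 25.5 against 31.1, 27.8 and 28.8. In all, 150 genes off 3p called against WT were also called in the same direction against 3q gain, 78 higher and 72 lower.

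Nuclear-encoded subunits of the respiratory chain rose by small steps. Of 22 tested subunits of complexes II to V, 14 were higher and none lower (median 0.50), and 13 to 16 were higher with 1 library left out. That list has 40 genes, of which 22 were found in the table off 3p and 1 on 3p, so it covers these complexes in part. COX7C, a subunit of cytochrome c oxidase, stood at 2783, 2647 and 2818 TPM in 3p loss and 1846, 1598 and 1591 in WT (0.71 ± 0.09, limma adjusted p = 0.00149). UQCRH, of complex III, stood at 1458, 1479 and 1492 against 1029, 999 and 837 (0.63 ± 0.10, limma adjusted p = 0.00361), and COX4I1 at 1376, 1176 and 1270 against 813, 948 and 939 (0.50 ± 0.10, limma adjusted p = 0.0112). The 3p loss libraries were above every WT library in each.

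Of 37 tested subunits of complex I, the entry point of the chain, 13 were higher and 1 lower (median 0.41), and 8 were higher when 3p loss replicate 3 or WT replicate 3 was left out. NDUFB1 stood at 365, 447 and 491 TPM against 251, 252 and 248, and NDUFS6 at 792, 549 and 559 against 383, 360 and 360. The one that fell, NDUFB2 (-0.59, limma adjusted p = 0.0402), lies in the low segment of chromosome 7 and is named after its value was seen. Its call was lost when any single 3p loss or WT library was left out. None of these subunits was called against 3q gain, where COX7C stood at 2231, 2386 and 2311 TPM, between the other genotypes. In RPF, 25 of 30 tested subunits of complex I and 17 of 20 of complexes II to V were higher, at a background of 36.0%. Of 74 mitochondrial ribosomal proteins, 2 rose and 1 fell in mRNA, and of 74 cytosolic ones 1 fell. Yet 39 of 71 mitochondrial and 47 of 57 cytosolic ribosomal proteins tested in RPF were higher there, and 10 and 3 were lower. The citric acid cycle list gave 6 higher and 1 lower of 24, with SUCLG1, FH and MDH1 at 0.69, 0.61 and 0.52.

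Proteasome subunits were higher as well, although fewer were called with a library left out. Of 36 tested, 18 were higher and none lower (median 0.39), but with one library left out the count was 8 (3p loss replicate 1 or 2), 5 (3p loss replicate 3) or 6 (WT replicate 3). It was 11 with the replicate block, 10 with no mean-variance trend and 9 with the 2 groups fitted alone. PSMB1, of the catalytic ring, stood at 788, 569 and 775 TPM in 3p loss and 361, 408 and 289 in WT (1.01 ± 0.16, limma adjusted p = 0.00352), and PSMC2, an ATPase of the cap, at 116, 137 and 136 against 87.3, 73.2 and 78.7 (0.70 ± 0.14, limma adjusted p = 0.0107). In RPF 17 of 31 members were higher and 5 lower, at a background of 36.0% higher and 32.9% lower. The lysosome list had 8 of 37 higher, but 4 when 3p loss replicate 3 was left out and 5 when WT replicate 2 or 3 was. The protease gene CTSD stood at 1010, 682 and 1083 TPM against 354, 324 and 470.

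NRF2 targets, which detoxify oxidants and hold iron, were partly higher. Of 36 tested, 11 rose and none fell (median 0.46), but 6 rose without 3p loss replicate 3. FTH1, the ferritin heavy chain, which has processed pseudogenes that can share reads, stood at 7339, 7066 and 7420 TPM in 3p loss and 2553, 3034 and 3554 in WT (1.27 ± 0.18, limma adjusted p = 0.00204). It was the only member of the list called above 3q gain (0.88, limma adjusted p = 0.0248), and the list's median difference from 3q gain was 0.04. The RPF CPM of FTH1 were lower in 3p loss, at 151, 143 and 180 against 294, 307 and 374. Of 35 members tested in RPF, 15 were higher and 5 lower, at a background of 36.0% higher and 32.9% lower. ME1 and CBR1, whose promoters are shown above, rose by 0.91 and 0.74. GPX2, also shown there, rose by 1.98, a call lost without 3p loss replicate 1 or 3 or WT replicate 1 or 2. HMOX1, which degrades haem, stood at 11.9, 15.7 and 23.9 TPM against 7.15, 4.48 and 1.90 (1.79 ± 0.39, limma adjusted p = 0.0145). NFE2L2, which encodes NRF2, was not called (-0.16, limma adjusted p = 0.579).

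ATF4 and its targets in amino acid and folate metabolism fell relative to WT. Of 34 tested, 22 were lower and none higher (median -1.20), and with one library left out the count was 10 (3p loss replicate 1), 12 (3p loss replicate 2 or 3, or WT replicate 2) or 11 (WT replicate 3). ATF4 stood at 222, 239 and 244 TPM in 3p loss, 525, 777 and 766 in WT and 261, 199 and 268 in 3q gain (-1.53 ± 0.17, limma adjusted p = 0.000847). The gene lies on 22q in the window of 30 to 40 Mb, next to the low segment. There, 26 of 91 genes were lower and 10 higher, with a median of -0.07. The windows are a fixed grid, so they do not place the edge of the segment. MTHFD1L, whose promoter is shown above, stood at 28.7, 36.3 and 22.3 TPM against 77.5, 78.0 and 102 (-1.54 ± 0.21, limma adjusted p = 0.00177). MTHFD2, another folate enzyme, stood at 110, 119 and 101 against 199, 311 and 405, and CBS, an enzyme of cysteine synthesis, at 4.75, 6.65 and 4.96 against 23.6, 66.5 and 60.8.

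WT replicate 1 was close to 3p loss at several of these genes. ASNS stood at 65.7, 58.9 and 63.8 TPM in 3p loss and 84.8, 342 and 376 in WT (-1.81 ± 0.51, limma adjusted p = 0.0426), and its difference was -2.50 without WT replicate 1. CHAC1 stood at 6.99, 6.31 and 7.38 against 12.0, 58.6 and 94.8, and TRIB3, a pseudokinase of the stress response, at 25.9, 25.7 and 26.4 against 34.1, 168 and 263. Limma's calls of all 3 were lost without any 1 of the 3p loss libraries and without WT replicate 2 or 3, with adjusted p values up to 0.135 for ASNS, 0.079 for CHAC1 and 0.119 for TRIB3. DDIT3, which encodes CHOP, was not called (0.02, limma adjusted p = 0.961). None of the 34 genes was called against 3q gain.

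In RPF the ATF4 list went the other way, with 23 of 31 tested members higher in 3p loss and 4 lower. The background there was 36.0% higher and 32.9% lower. ASNS stood at 810, 834 and 772 RPF CPM in 3p loss and 289, 291 and 255 in WT, and TRIB3 at 412, 425 and 535 against 132, 148 and 147. MTHFD2 stood at 360, 360 and 314 against 172, 168 and 148. MTHFD1L and ATF4 were lower in both assays, with RPF differences of -0.83 and -0.70 by edgeR. The assays used different libraries and different WT samples, so a difference in translation cannot be told apart from a difference between the cultures.

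The p53 list was also divided between the assays, less widely than the ATF4 list. Of 33 tested targets, 12 fell and none rose in mRNA (median -0.51). The number that fell was 4 when 3p loss replicate 1 or WT replicate 3 was left out and 6 when 3p loss replicate 2 was. RPF had 17 of 32 higher and 5 lower, at a background of 36.0% higher and 32.9% lower. Compared directly with 3q gain, 1 of the 33 was higher and none lower. CDKN1A, the p53-induced cell cycle inhibitor, stood at 124, 164 and 201 TPM in 3p loss and 263, 255 and 499 in WT.

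Interferon-stimulated genes gave few calls in mRNA. Of 49 tested, 6 were higher (12.2%) and none lower in mRNA (median 0.56). With one library left out that count was 1 (3p loss replicate 1 or 3, or WT replicate 2), 3 (WT replicate 1, or 3q gain replicate 1 or 3) or 0 (WT replicate 3), and with all libraries 15 members were higher at an unadjusted p under 0.05. The replicate block gave 11 higher and 1 lower, no filter on low values 1 higher, no mean-variance trend 2 and the 2 groups fitted alone 3. IFI6 stood at 196, 96.6 and 614 TPM in 3p loss, 44.8, 28.9 and 23.3 in WT and 843, 229 and 433 in 3q gain, and IFI27 at 77.7, 36.9 and 181 against 11.2, 5.80 and 12.0 in WT. The WT libraries were below every library of both other groups at IFI6. BST2 rose by 2.16, a call lost in 10 of 16 alternatives, among them the fits without any single WT library. Of the 25 promoters with the response element, 5 belonged to called members. In RPF, 37 of 41 tested members were higher and 3 lower, at a background of 36.0% higher and 32.9% lower.

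**Figure D4:**
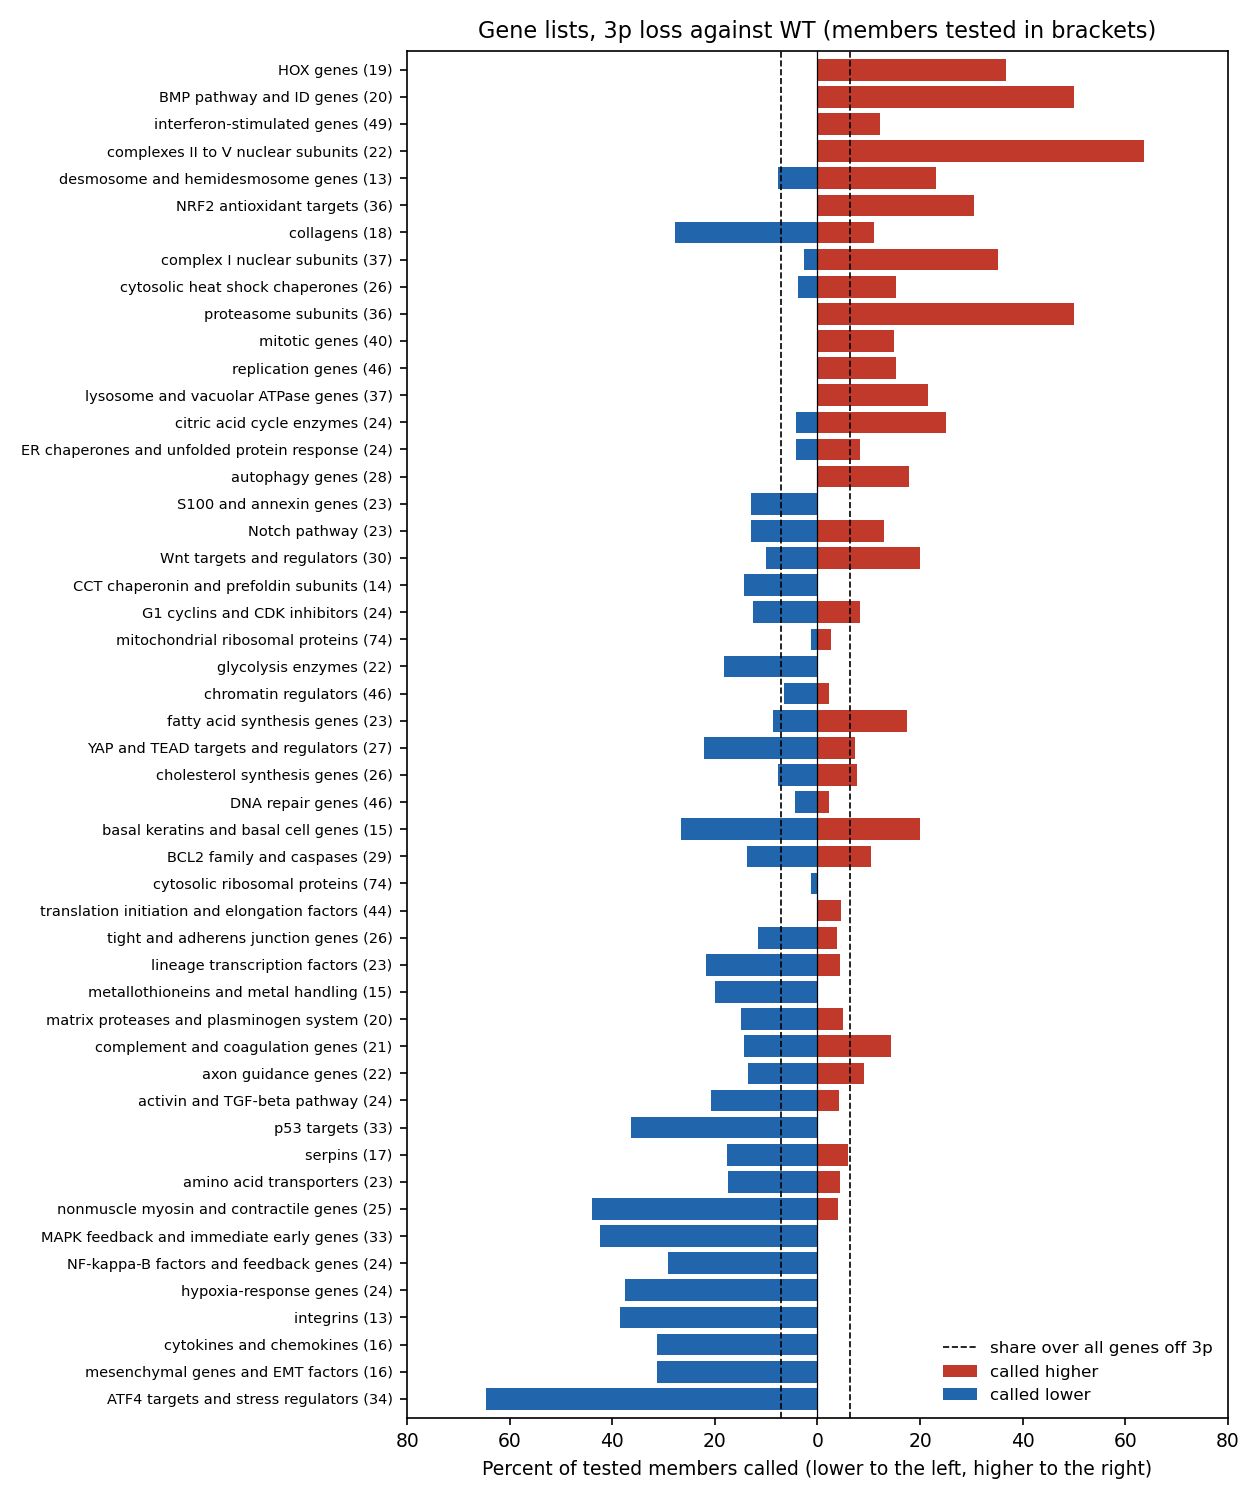
Percentage of the tested members of each gene list that limma called lower (left) or higher (right) in 3p loss than in WT, for lists with at least 13 tested members and a call. Dashed lines mark the 7.08% and 6.42% of all genes off 3p. Most lists shown exceed a line, the contractile, MAPK, ATF4 and respiratory chain lists among them. The lists were chosen with earlier results of these data known.

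Across both assays most differences kept their direction. Of 633 genes off 3p that were higher in mRNA and tested in RPF, 454 (71.7%) were higher and 59 lower in RPF. Of 694 that were lower, 479 (69.0%) were lower and 77 higher. Read from the other side, 13.0% of 3504 genes higher in RPF were higher in mRNA and 14.6% of 3289 genes lower in RPF were lower in mRNA. Across 9841 genes Pearson's r of the 2 differences was 0.55, a description across genes that are not independent. RPF replicates 1 and 2 of each genotype were closer than other pairs, with a chi-square per degree of freedom of 1.36 in WT and 1.40 in 3p loss against 7.36 to 13.2, and they may be less independent than the labels say.

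**Figure D5:**
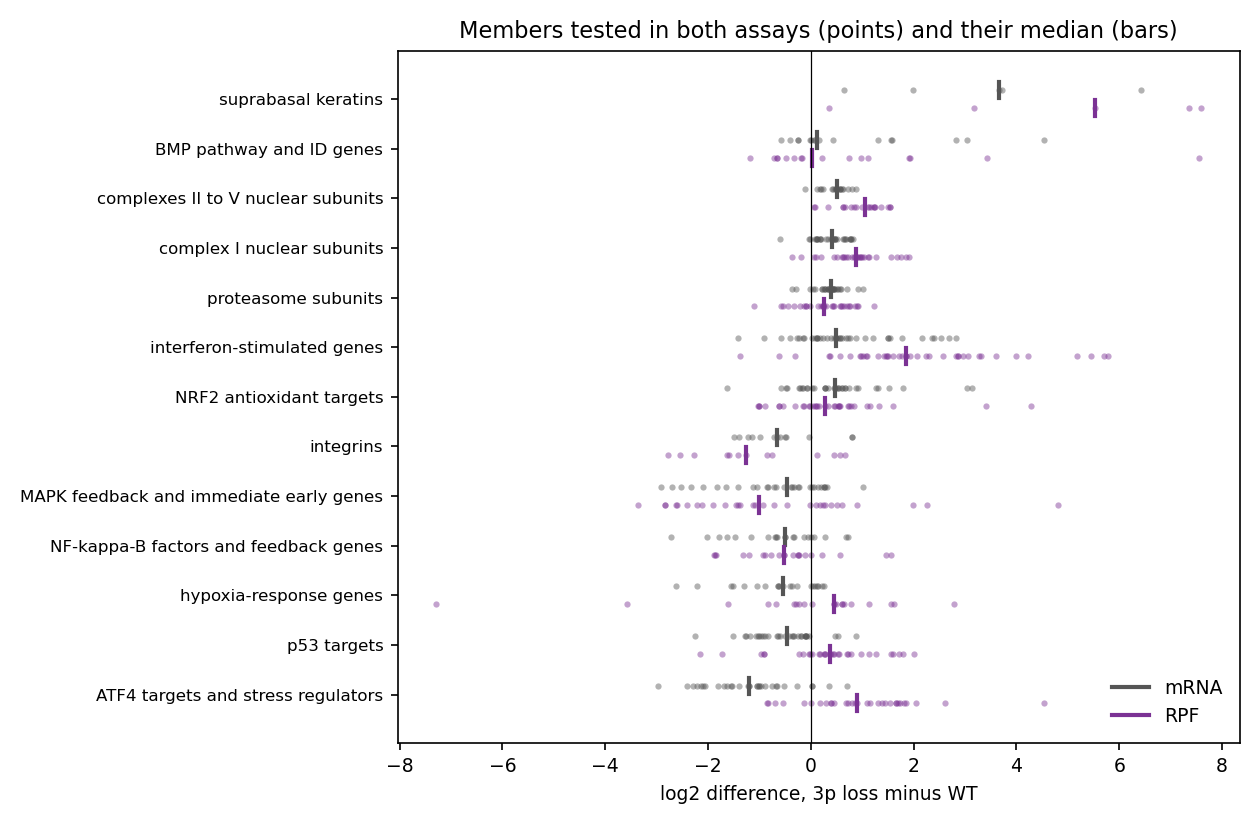
Log2 difference of 3p loss from WT in mRNA and in RPF for members of 13 gene lists tested in both assays, with points for genes and a mark for the median. The medians share a sign for 10 of the lists, such as suprabasal keratins (3.67 and 5.53), and are opposite for the hypoxia (-0.54 and 0.45), p53 (-0.46 and 0.38) and ATF4 lists (-1.19 and 0.89).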

How the data were processed

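Polyadenylated RNA of 3p loss, Chr3 WT and 3q gain cells (3 libraries each) was sequenced as 100 bp paired-end reads with a directional kit, per the labels' protocols. The authors deposited one table of TPM-scaled values per gene, in which a library's values sum to between 904850 and 916783, and one table of RPF read counts per gene. The submitters' processing notes name GRCh38. The sources used here do not give the aligner, counter or annotation, and the depth behind the TPM values is unknown. RPF totals were 4596062 to 13534981 counts in named genes, and 1061 rows named by transcript (0.432 to 0.568% of counts) were left out.

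TPM values were tested as log2(TPM + 1) with limma 3.58.1 (mean-variance trend, 9 libraries in one fit, 11222 genes), and RPF counts with edgeR 4.0.16 (TMM, filterByExpr, quasi-likelihood test, 11425 genes), two-sided, with Benjamini-Hochberg adjustment over all genes tested. The lists have 75 entries and leave out 3p. The members and lists were chosen with earlier results of these data known. List members whose symbol differs from the table's and was not matched were not analysed here, and lists of mitochondrially encoded genes, replication-dependent histones and cancer testis antigens had no tested member. Named genes were the 12 highest and 12 lowest called differences without overlap, up to 4 called members a list by level with its best-known members, the 10 called genes of highest level, the 8 highest and lowest also called against 3q gain, the 6 largest in each direction called in RPF too, and up to 4 opposite in RPF. Of 309 named genes 283 were called. Replicate numbers were not used to pair libraries. Alternatives changed the scaling, pseudocount (0.1), filter, variance trend, block, libraries in the fit, and the RPF tool (DESeq2 1.42.0), and left out each library. The tests were also run on simulated data with independent noise at each gene, which lack the arm-wide shifts of single libraries seen here.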

Additional observations from a re-analysis of the deposited data

How the results depend on the processing

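Of the 283 named calls, 151 were called under every alternative that tested them (16 or 17 each) and 131 were lost without some 1 library. With 1 library left out, limma called 1009 to 1548 genes in all (1702 with all libraries), 378 to 608 higher and 405 to 713 lower off 3p (699 and 771), 184 to 473 against 3q gain (442), and 47 to 178 in the same direction against both groups (150). Counts shared in direction with RPF were 553 to 847 without 1 mRNA library (933) and 906 to 932 without 1 RPF library, opposite ones 55 to 133 and 114 to 156 (136), and RPF calls 7302 to 8161 (7913). The 2 groups fitted alone gave 1132 calls, 412 higher off 3p and 62 opposite to RPF, median centring gave 1129 higher off 3p and moved the median of all genes from 0.01 to 0.09, and a minimum mean of 10 gave 93 in the same direction against both groups. The cause was not tested. Replicate numbers did not pair 3p loss with WT (correlation of same-numbered deviations -0.05, -0.10 and -0.17), and by the same measure 3p loss and 3q gain gave 0.12, 0.16 and 0.14. With the replicate block there were 1525 calls, 607 higher and 687 lower off 3p, 349 against 3q gain, 106 against both groups, 842 shared with RPF, 113 opposite, and 7980 RPF calls. Summing RPF replicates 1 and 2 gave 6797 calls and DESeq2 7597. Signs turned for uncalled genes alone, with 1 library left out, at BMPR1A (-0.0006 to 0.6639), BMPR2 (-0.1204 to 0.0945, and 0.0693 centred), SMAD1 (-0.0885 to 0.2184), DDIT3 (-0.1722 to 0.1355), EPCAM (-0.186 to 0.4801) and NFE2L2 (-0.3365 to 0.044). In the 250 bases before the start alone, the ATF4, NRF2 and interferon motifs stood in 3 of 26, 6 of 25 and 23 of 40 promoters of their lists.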

Other observations

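HOX genes, which set position along the body axis, were among the higher genes. Of 19 tested, 7 rose and none fell (median 0.89), but 3 when 3p loss replicate 2 was left out, 4 when WT replicate 3 was, 3 with the 2 groups fitted alone and 1 with a minimum mean of 10. HOXA7 stood at 4.28, 7.52 and 5.73 TPM in 3p loss, 0.361, 1.64 and 0.195 in WT and 3.20, 4.65 and 4.35 in 3q gain (2.05 ± 0.33, limma adjusted p = 0.00374), and HOXC6 at 5.53, 8.08 and 7.67 against 0.0885, 2.20 and 0.848 in WT (2.11 ± 0.37, limma adjusted p = 0.00586). Both were high in 3q gain as well.

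Sterol genes were opposite in the assays at single members. The sterol synthesis enzyme genes LSS and MVK rose in mRNA (0.51 and 0.60) while their RPF differences were -1.29 and -1.03. Of 26 members 2 rose (7.69%) and 2 fell (7.69%) in mRNA, near the 6.42% and 7.08% of all genes off 3p. In RPF 18 of 25 were lower and 3 higher, at a background of 32.9% lower and 36.0% higher. CDC20, an activator of the anaphase-promoting complex, rose in mRNA (0.67) and was lower in RPF (-0.68).

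The matrix gene FN1 stood at 46.9, 24.5 and 207 TPM in 3p loss, 1056, 1662 and 1421 in WT and 280, 94.7 and 17.8 in 3q gain. Its call in 3p loss was lost without 3p loss replicate 1 (limma adjusted p = 0.0534), and its difference of -4.42 became -3.76 when 3p loss replicate 2 was left out and -5.28 when 3p loss replicate 3 was.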
